A study of Mus musculus with 8 samples.

Results

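A set of 10 genes of fatty acid and triglyceride synthesis (lipogenesis) was followed in RNA-sequencing of mouse aortic tissue. They are Scd1, Scd2, Fasn, Acaca, Acly, Elovl6, Me1, Srebf1, Dgat2 and Thrsp, and they were selected by gene symbol from the 35896 genes of the count table. Scd1 was singled out because it is the most abundant gene of 1 library, so its values are given as a description without a test, and the other 9 genes were chosen by function. All 10 of the 10 genes passed the filter on low counts, which left 17182 genes for testing. The 4 groups held 2 libraries each, from 16 male mice of the strain labelled C57BL6 in all. Every library pooled a piece of the aorta, not the whole vessel, from each of 2 mice. Mice of the AngII group received angiotensin II at 2.8 mg/kg/d for 2 weeks by osmotic minipump from 11 weeks of age and were sacrificed when the infusion ended. AngII+2W and AngII+3W mice had the same infusion and were sacrificed 2 and 3 weeks after its end. CTRL mice were untreated littermates of the same age, sacrificed at each of these times, and the labels do not say which time a CTRL library stands for.

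Lipogenesis turns surplus carbohydrate into stored fat. Citrate exported from mitochondria is split to acetyl-CoA, which is carboxylated to malonyl-CoA, assembled into palmitate with NADPH as reductant, elongated, desaturated and esterified to triglyceride. Insulin and glucose act on these genes through the transcription factors SREBP-1c and ChREBP, and adipocytes and hepatocytes are the best known sites of the pathway. The aorta is surrounded by perivascular fat, and a whole-tissue library holds RNA of every cell type in the piece taken. In such libraries fewer cells of a type and less RNA per cell cannot be told apart.

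Library totals lay between 18130441 and 21498200 counts, and a count of 3 was worth 0.140 to 0.165 counts per 1000000 of these unscaled totals. CPM values below are counts per 1000000 with the totals scaled by TMM. Mitochondrial genes took 8.15 to 18.3% of the counts, with the highest share in AngII+3W replicate 1. That library also stood apart in 7 skeletal muscle genes, whose summed level was 2424 CPM there and 5.64 to 74.4 CPM in the other libraries. Summed cardiac muscle markers ranged from 9.45 CPM in AngII+2W replicate 2 to 5600 CPM in AngII+3W replicate 1. The part of these other tissues in the results was not tested, and values without AngII+3W replicate 1 are given for some of the genes.

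The 10 genes made up a large part of the aortic libraries. Together they took 3.23% of all counts (95% Wilson interval 3.23 to 3.24) in CTRL replicate 1 and 4.28% in CTRL replicate 2. For AngII the shares were 5.59 and 4.61%, for AngII+2W 8.08 and 7.70%, and for AngII+3W 5.12 and 7.36%. All 6 libraries of infused mice lay above both CTRL libraries, and the 2 AngII+2W libraries were the highest. Scd1 alone took 1.73 to 4.21% of the counts. Without it the other 9 genes summed to 15361 and 22139.9 CPM for CTRL, 31395 and 24669 for AngII, 38764 and 36204 for AngII+2W, and 24892 and 31354 for AngII+3W, which is again above CTRL in every infused library. Fasn held much of this sum, at 9269.9 and 13706 CPM for CTRL and 24627 and 23177 for AngII+2W. Not every gene followed it, since Dgat2 in the infused libraries lay between the CTRL libraries. Wilson intervals cover counting error only and are far narrower than the gap between replicates.

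Scd1 (stearoyl-CoA desaturase 1, ENSMUSG00000037071, chr19:44394455-44407879 on GRCm38), which puts a double bond into stearate and palmitate, was the leading gene of the group. It reached 17728 and 20008 CPM for CTRL, 25064 and 19322 for AngII, 42271 and 39378 for AngII+2W, and 30312 and 40377 for AngII+3W. The AngII libraries overlapped CTRL, while all 4 libraries taken after the infusion lay above every CTRL and AngII library. In AngII+2W replicate 1 Scd1 was the most abundant gene, with 905623 counts against 892766 for mitochondrial mt-Co1. In the other 7 libraries it ranked 2, behind mt-Co1. AngII+2W replicate 2 was the closest of them, with 733348 counts of Scd1 and 784931 of mt-Co1. The group mean was 1.18 times the CTRL mean for AngII, 2.16 times for AngII+2W and 1.87 times for AngII+3W. Without AngII+3W replicate 2 the log2 fold change of AngII+3W was 0.63 in place of 0.91, and without replicate 1 it was 1.09.

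**Figure D1:**
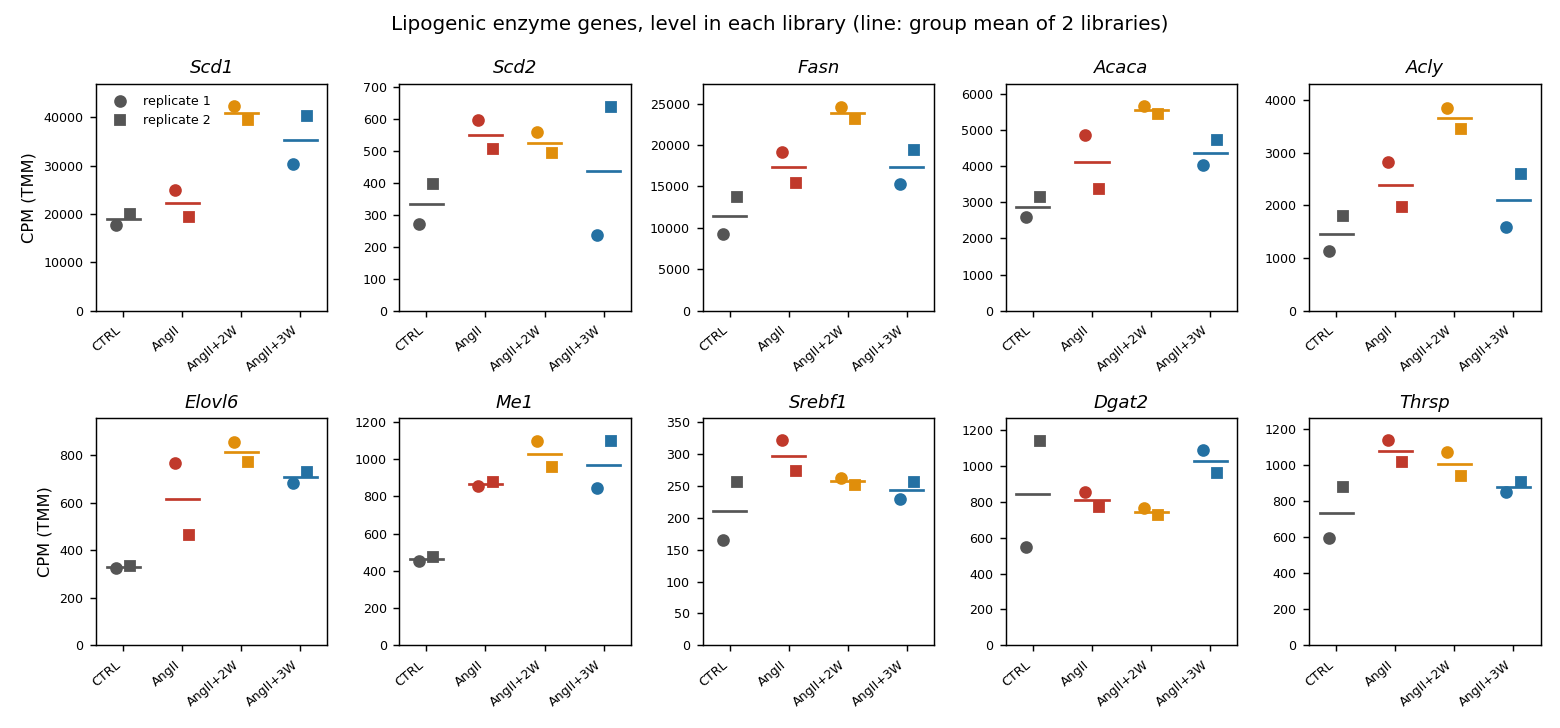
Level of each of the 10 lipogenic genes in every library, in CPM scaled by TMM on a linear axis from 0, with circles for replicate 1, squares for replicate 2 and a line at the mean of the 2 libraries of a group. Scd1, Fasn, Acaca, Acly, Elovl6 and Me1 have their highest group mean in AngII+2W, Dgat2 has its highest in AngII+3W, and Scd2 is split between 238 and 637 CPM within AngII+3W.

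Per kilobase of the longest coding transcript, the CTRL mean of Scd1 was 3905 CPM. Fasn followed with 1143 CPM per kilobase, Thrsp with 576, Dgat2 with 374, Acly with 331 and Acaca with 303. The ranges of the 2 CTRL libraries overlapped between Thrsp and Dgat2, between Dgat2 and Acly, and between Acly and Acaca, so the order of these neighbours does not exceed their spread. Me1 stood at 141 CPM per kilobase. Scd2, Elovl6 and Srebf1 were lowest at 61.2, 55.2 and 49.0, and their ranges overlapped too.

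The stretch before the transcription start is shown for 4 of the genes, Fasn, Acly, Me1 and Thrsp, as examples of a core enzyme of the pathway, the gene with the highest estimate in AngII+2W, the gene that passed the test in AngII and a regulator. Each is the 120 bases upstream of a start site in RefSeq on GRCm38.p6, written 5′ to 3′ on the strand of the gene. The gene positions given below are from GENCODE and differ for 2 of the genes. By those positions the whole Thrsp stretch and part of the Me1 stretch lie within the gene. Capitals mark CCAAT (or ATTGG on the other strand) and the GC box GGGCGG (or CCGCCC).
Fasn, chr11:120824548-120824667, reverse strand: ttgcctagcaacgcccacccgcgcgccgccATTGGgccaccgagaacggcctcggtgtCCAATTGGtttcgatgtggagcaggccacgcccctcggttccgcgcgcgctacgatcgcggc
Acly, chr11:100528001-100528120, reverse strand: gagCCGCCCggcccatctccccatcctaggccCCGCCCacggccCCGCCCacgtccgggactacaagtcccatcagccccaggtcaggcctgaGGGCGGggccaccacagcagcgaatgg
Me1, chr9:86695915-86696034, reverse strand: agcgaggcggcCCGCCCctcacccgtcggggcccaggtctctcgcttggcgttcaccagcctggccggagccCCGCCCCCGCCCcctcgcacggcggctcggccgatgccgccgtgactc
Thrsp, chr7:97417551-97417670, reverse strand: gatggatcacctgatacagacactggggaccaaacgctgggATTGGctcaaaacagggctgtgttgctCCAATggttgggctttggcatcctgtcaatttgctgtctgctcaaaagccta

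In these 4 sequences the GC box occurs in Acly and Me1 and CCAAT in Fasn and Thrsp. In Fasn a CCAAT and an ATTGG share bases. Over 250 bases upstream, searched on both strands, CCAAT was found in 5 of 10 start sites of the 7 genes with an entry, against 33.8% of 32851 start sites of all genes. The GC box was found in 4 of the 10, against 32.7% of all. The E-box CACGTG (6.02% of all start sites) and the sterol element core TCACNCCAC (1.05%) were found in none of the 10. These are matches of letters only.

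The comparison of each infused group with CTRL asks what AngII leaves in the aorta at the end of the infusion and after it was stopped. All 3 comparisons share the same 2 CTRL libraries. Counts and medians are given for the 9 genes other than Scd1. In AngII 8 of the 9 had an estimate above 0, with a median log2 fold change of 0.59 beside -0.01 over all genes tested. In AngII+2W the count was 8 and the median 0.95, beside a median of -0.00011 over all genes. In AngII+3W it was 9 with a median of 0.52, beside 0.03. Both libraries lay above both CTRL libraries for 8 of the 9 genes with AngII, 7 with AngII+2W and 4 with AngII+3W, while 24.4%, 21.7% and 19.8% of all genes tested did so.

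Few of these differences passed the test. At an FDR (Benjamini-Hochberg over 17182 genes) of 0.05 in edgeR's quasi-likelihood test, 1 of the 9 tested genes was called in AngII, where 5.1% of all genes were called. None was called in AngII+2W, where 0% of all genes were called, or in AngII+3W, where 0.285% were. The unadjusted p was under 0.05 for 4, 5 and 3 of the 9 genes in the 3 comparisons, and for 3474, 1838 and 2150 of all genes. DESeq2 called 2 (Elovl6 and Me1), 5 (these with Fasn, Acaca and Acly) and 2 (Elovl6 and Me1) of the genes, with 9.24%, 2.17% and 3.4% of all genes called. P-values measure the spread between these libraries of pooled mice.

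**Figure D2:**
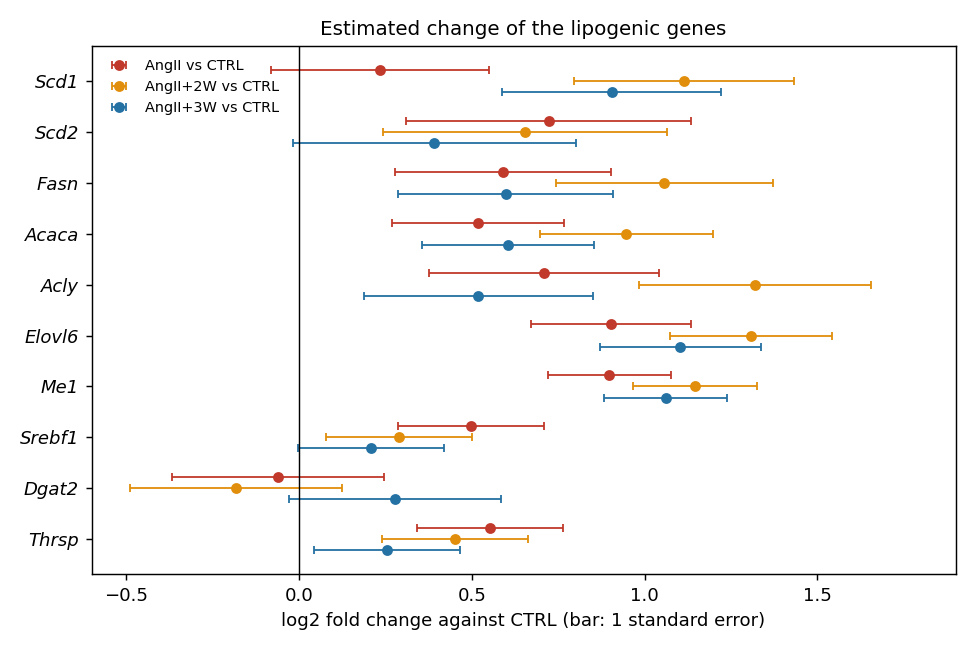
Log2 fold change of each lipogenic gene against CTRL in AngII, AngII+2W and AngII+3W, with bars of 1 standard error from edgeR; Scd1 is shown as a description. Me1 and Elovl6 lie between 0.90 and 1.31 in all 3 comparisons, and the 3 estimates of Dgat2 lie within 1 standard error of 0.

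At the head of the pathway, Acly (ATP citrate lyase, ENSMUSG00000020917, chr11:100476353-100528000) makes cytosolic acetyl-CoA from citrate. Its level was 1126 and 1801 CPM for CTRL, 2824 and 1960.5 for AngII, 3854 and 3452 for AngII+2W, and 1596 and 2601 for AngII+3W. Both AngII+2W libraries were above every other library, and AngII+3W overlapped CTRL. The AngII+2W log2 fold change was 1.32 (95% interval 0.54 to 2.10), the highest of the 10 genes, with an FDR of 0.283. From AngII+2W to AngII+3W Acly had the only unadjusted p under 0.05 among the 9 genes (log2 fold change -0.80, unadjusted p = 0.0440 and FDR 0.549 in edgeR). The AngII+3W libraries were 1.63-fold apart, with replicate 1 the lower. Against CTRL the AngII+3W log2 fold change was 0.52 (edgeR FDR 0.565). Leaving out 1 library, it ran from 0.07 (without AngII+3W replicate 2) to 0.89 (without CTRL replicate 2).

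Acaca (acetyl-CoA carboxylase 1, ENSMUSG00000020532, chr11:84129672-84401651), which commits acetyl-CoA to fatty acid synthesis as malonyl-CoA, was measured at 2604 and 3155 CPM for CTRL, 4871 and 3382 for AngII, 5668 and 5437 for AngII+2W, and 4022 and 4735 for AngII+3W. No library of an infused mouse overlapped CTRL. None of its log2 fold changes passed, at 0.52 for AngII (edgeR FDR 0.299), 0.95 for AngII+2W (0.291) and 0.60 for AngII+3W (0.375). The gene Gm5182 matches 64.3% of the Acaca transcript at 99.2% identity, so some reads can be split between them, and it held 1.55% as many counts as Acaca.

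Fasn (fatty acid synthase, ENSMUSG00000025153, chr11:120805846-120824547), the multienzyme that builds palmitate, ranked between 3 and 9 among all genes. It reached 9269.9 and 13706 CPM for CTRL, 19172 and 15419 for AngII, 24627 and 23177 for AngII+2W, and 15341 and 19434 for AngII+3W. Every infused library exceeded both CTRL libraries, which were themselves 1.48-fold apart. The log2 fold change was 1.06 in AngII+2W (95% interval 0.33 to 1.79, edgeR FDR 0.309), beside 0.59 for AngII (FDR 0.348) and 0.60 for AngII+3W (FDR 0.486).

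Elovl6 (ENSMUSG00000041220, chr3:129532355-129638495) elongates palmitate to stearate, the substrate of Scd1. The CTRL libraries were close, at 324 and 333 CPM. All infused libraries were higher, with 765 and 465 for AngII, 857 and 771 for AngII+2W, and 682 and 729.97 for AngII+3W. Its log2 fold change against CTRL was 0.90 for AngII (SE 0.23, edgeR FDR 0.0706), 1.31 for AngII+2W (SE 0.23, FDR 0.174) and 1.10 for AngII+3W (SE 0.23, FDR 0.104).

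Scd2 (ENSMUSG00000025203, chr19:44293674-44306864), a second stearoyl-CoA desaturase whose gene neighbours Scd1, was far less abundant. It was at 271 and 396 CPM for CTRL, 597 and 504 for AngII, 558 and 492 for AngII+2W, and 238 and 637 for AngII+3W. The AngII and AngII+2W libraries lay above CTRL, whereas the AngII+3W replicates were 2.68-fold apart and spanned the CTRL range. The log2 fold changes of 0.72, 0.65 and 0.39 had FDRs of 0.386, 0.633 and 0.739 in edgeR. Without AngII+3W replicate 2 the AngII+3W estimate was -0.54, and without replicate 1 it was 0.93. Scd1 and Scd2 share 87.6% identity over 24.8% of the Scd1 transcript, and reads from that stretch can be split between them.

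Me1 (malic enzyme 1, ENSMUSG00000032418, chr9:86581371-86695953), a cytosolic source of NADPH, was the 1 gene that rose past the threshold. Its level was 454 and 475 CPM for CTRL, 854 and 877 for AngII, 1096 and 959 for AngII+2W, and 843 and 1095 for AngII+3W. Its near copy Gm7049 held 0.0275% as many counts. The replicates of CTRL and of AngII were within 1.05-fold of each other, and every infused library was above CTRL. In AngII the group mean was 1.86 times that of CTRL (log2 fold change 0.90, SE 0.18, edgeR FDR 0.0348). In AngII+2W the ratio was 2.21 (log2 fold change 1.15, FDR 0.174) and in AngII+3W 2.09 (1.06, FDR 0.0657), neither of which passed. The AngII call was lost when library totals alone set the scale (edgeR FDR 0.0521), in a fit that called 3.62% of all genes beside 5.1% in the main fit. The call also depended on which libraries were kept, as did the number of all genes called. Leaving out 1 library in turn, the log2 fold change of Me1 in AngII was 0.87 to 0.92.

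Dgat2 (diacylglycerol O-acyltransferase 2, ENSMUSG00000030747, chr7:99153658-99182719) adds the last acyl chain of a triglyceride. It was at 549.7 and 1141 CPM for CTRL, 852 and 768 for AngII, 766 and 724 for AngII+2W, and 1087 and 962 for AngII+3W. All 6 infused libraries lay between the 2 CTRL libraries, which were 2.08-fold apart. The log2 fold changes were -0.06 (95% interval -0.77 to 0.65), -0.18 (-0.89 to 0.53) and 0.28 (-0.44 to 0.99) for AngII, AngII+2W and AngII+3W, and all 3 intervals end below a log2 fold change of 1 (edgeR FDR 0.940, 0.895 and 0.756). Which CTRL library is kept turns the direction. Without CTRL replicate 2 the AngII estimate was 0.55, and without CTRL replicate 1 it was -0.49.

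Srebf1 (ENSMUSG00000020538, chr11:60199089-60222581), which encodes SREBP-1, was at 165 and 256 CPM for CTRL, 322 and 273 for AngII, 263 and 252 for AngII+2W, and 229.8 and 257 for AngII+3W. AngII lay above CTRL, and the other infused groups overlapped it. The log2 fold changes were 0.50 (edgeR FDR 0.242), 0.29 (FDR 0.696) and 0.21 (FDR 0.732). The opposite-strand gene Rai1 overlaps Srebf1 and held 24.9% as many counts, and whether the counting used strand is not given in the sources used here.

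Thrsp (Spot 14, ENSMUSG00000035686, chr7:97412938-97417730), a thyroid hormone-responsive gene of lipogenic tissues, was measured at 596 and 876 CPM for CTRL, 1139 and 1020.3 for AngII, 1074 and 939.7 for AngII+2W, and 854 and 904 for AngII+3W. AngII and AngII+2W lay above CTRL, and AngII+3W overlapped it. The log2 fold changes were 0.55 (edgeR FDR 0.194), 0.45 (FDR 0.508) and 0.26 (FDR 0.662), highest in AngII as for Srebf1 and Scd2.

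Between the infused groups no lipogenic gene was called by edgeR or DESeq2 (0, 0 and 1 of 9 with an unadjusted p under 0.05, and 2581, 3059 and 1518 of all genes). Over all genes edgeR called 0.163% for AngII+2W against AngII, 1.61% for AngII+3W against AngII and 0% for AngII+3W against AngII+2W, and DESeq2 called 3.99%, 5.63% and 1.29%. Over the 9 genes the median difference on the log2 scale was 0.25 for AngII+2W against AngII, 0.0077 for AngII+3W against AngII and -0.21 for AngII+3W against AngII+2W, where 8 of 9 estimates were below 0. Without AngII+3W replicate 2, 1 gene, Scd2, was called lower in AngII+3W than in AngII (log2 fold change -1.26, edgeR FDR 0.0404), in a fit that called 5.63% of all genes and assumes that the lone AngII+3W library varies like those of the other groups.

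Over the 8 libraries the genes differed in how closely they tracked each other, and the sets named here were formed after the values were seen. The 15 pairs among Scd1, Fasn, Acaca, Acly, Elovl6 and Me1 had Pearson correlations of log2 CPM from 0.78 to 0.97 (median 0.87). Srebf1 and Thrsp correlated at 0.96 with each other, Scd1 and Scd2 at 0.43, and the 9 pairs with Dgat2 at 0.03 to 0.48. These are descriptions over 8 points from 4 groups of 2, which share library preparation and the group differences. Within a group most of the genes differed between replicates in the same direction. In CTRL all 10 genes were higher in replicate 2, in AngII 9 were lower in replicate 2, and in AngII+2W all 10 were lower in replicate 2. In AngII+3W Dgat2 was lower in replicate 2 and the other genes were higher. The share of all genes with these directions was not counted, so this is not read as a trait of the lipogenic genes.

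**Figure D3:**
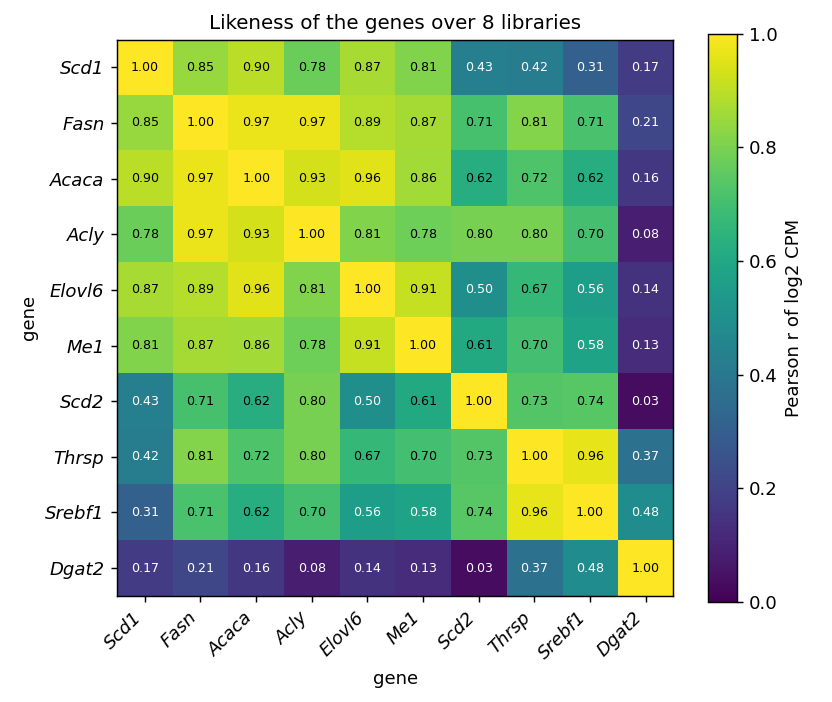
Pearson correlation of log2 CPM between each pair of lipogenic genes over the 8 libraries, with both axes listing the genes and colour running from 0 to 1. The 6 genes at the upper left correlate at 0.78 or more, and the Dgat2 row stays at 0.48 or less.

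Among all other genes tested, the levels most like that of Scd1 over the 8 libraries were those of Mthfs (r = 0.98), Lrrc51 (0.97), Wdr19 (0.95), Zmym1 (0.95) and Pgrmc2 (0.95). Closest to the mean of the 10 genes were Nsdhl (r = 0.99), an enzyme of cholesterol synthesis, Slc2a5 (0.96), the fructose transporter, Slc25a1 (0.96), the mitochondrial citrate carrier, Gstm4 (0.96) and Klb (0.95), a coreceptor for FGF21. They were picked from 17182 genes for their likeness, and their r is a description that does not measure the size of a change. Scd1 ran from 17728 to 42271 CPM, whereas Mthfs ran from 9.88 to 11.4, Lrrc51 from 2.53 to 3.49 and Wdr19 from 12.2 to 17.5. Zmym1 ran from 6.92 to 9.38 CPM and Pgrmc2 from 69.4 to 109. In the other set Nsdhl ran from 19.0 to 43.7 CPM, Slc2a5 from 2.58 to 9.57, Slc25a1 from 246 to 581, Gstm4 from 8.48 to 10.5 and Klb from 49.7 to 65.2.

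Further genes of the lipid pathways were read from lists. Of 18 others of fatty acid and triglyceride synthesis none passed edgeR's test in any comparison with CTRL, with medians of 0.26, 0.26 and 0.33 on the log2 scale for AngII, AngII+2W and AngII+3W. An unadjusted p under 0.05 was found for 7, 7 and 5 of them, and DESeq2 called 5, 3 and 0. The most abundant were Acsl1, which activates fatty acids, and Acacb, the mitochondrial-surface carboxylase. Acsl1 was lower in both AngII+2W libraries, at 1077 and 1086 CPM, than in CTRL, at 1377 and 1589 (log2 fold change -0.46, FDR 0.454). Acacb was at 1075 and 1409 CPM in CTRL and at 1982 and 2068 in AngII+2W (log2 fold change 0.70, edgeR FDR 0.311).

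Of 5 further enzymes of NADPH supply or the pentose phosphate pathway 2 rose in AngII, where 5.1% of all genes were called. They were G6pdx, Pgd, Idh1, Taldo1 and Tkt, of which Taldo1 and Tkt belong to that pathway without supplying NADPH. None of the 5 passed in edgeR for AngII+2W (4 with an unadjusted p under 0.05, 2 called by DESeq2) or AngII+3W (0 and 0). Pgd, of the pentose phosphate pathway, went from 136 and 199 CPM in CTRL to 326 and 318 in AngII (log2 fold change 0.95, edgeR FDR 0.0402). Idh1, the cytosolic isocitrate dehydrogenase, went from 144 and 165 to 263 and 223 CPM (log2 fold change 0.65, edgeR FDR 0.0486). Leaving out 1 library in turn, the log2 fold change in AngII was 0.70 to 1.24 for Pgd and 0.53 to 0.77 for Idh1. Both calls depended on which libraries were kept, as did the number of all genes called. All 5 estimates were above 0 in each comparison, with medians of 0.65, 0.61 and 0.33.

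None of 15 regulators of lipogenic transcription passed in edgeR (3, 2 and 1 with an unadjusted p under 0.05, and 1, 1 and 1 called by DESeq2), and their medians were 0.01, 0.02 and -0.10. Insig1, a target and brake of SREBP processing, was at 184 and 282 CPM in CTRL and 387 and 407 in AngII+2W (log2 fold change 0.77, edgeR FDR 0.303). Mlxipl, which encodes ChREBP, was at 165 and 306 CPM in CTRL and 223 and 303 in AngII+2W, so its groups overlapped. None of 18 cholesterol genes passed in edgeR (medians 0.19, 0.12 and 0.13, with an unadjusted p under 0.05 for 6, 4 and 2, and 1, 1 and 0 called by DESeq2). The most abundant of them, Hmgcs1 and Fdft1, had log2 fold changes of 0.68 and -0.73 for AngII (edgeR FDR 0.177 and 0.106) and of -0.13 and 0.65 for AngII+2W (FDR 0.907 and 0.353).

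None of 13 genes of fatty acid oxidation passed in edgeR either (2, 0 and 1 with an unadjusted p under 0.05, and 1, 0 and 0 called by DESeq2), and their medians of -0.0019, 0.02 and 0.09 lay near those of all genes. Pdk4 and Hadhb, the most abundant, had log2 fold changes of -0.04 and 0.29 in AngII+2W. In AngII these were -0.58 (edgeR FDR 0.291) and -0.01, and in AngII+3W -0.32 and 0.21. Of 11 genes of lipid droplets and lipolysis 1 rose in AngII, Abhd5, the activator of adipose triglyceride lipase (89.0 ± 12.9 CPM in CTRL and 168 ± 36.5 in AngII, SD, n = 2; log2 fold change 0.92, edgeR FDR 0.0476). In AngII 5.1% of all genes were called. The call of Abhd5 depended on which libraries were kept, with log2 fold changes of 0.68 to 1.12 leaving out 1 library in turn. An unadjusted p under 0.05 was found for 4, 2 and 0 of the 11 genes, and DESeq2 called 3, 1 and 0. Plin4, a lipid droplet coat protein, was lower in its DESeq2 calls for AngII and AngII+2W (edgeR log2 fold change -0.60 and -0.70), and Plin2, another, was higher in AngII (0.59). The medians of that list were 0.01, -0.16 and 0.07.

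**Figure D4:**
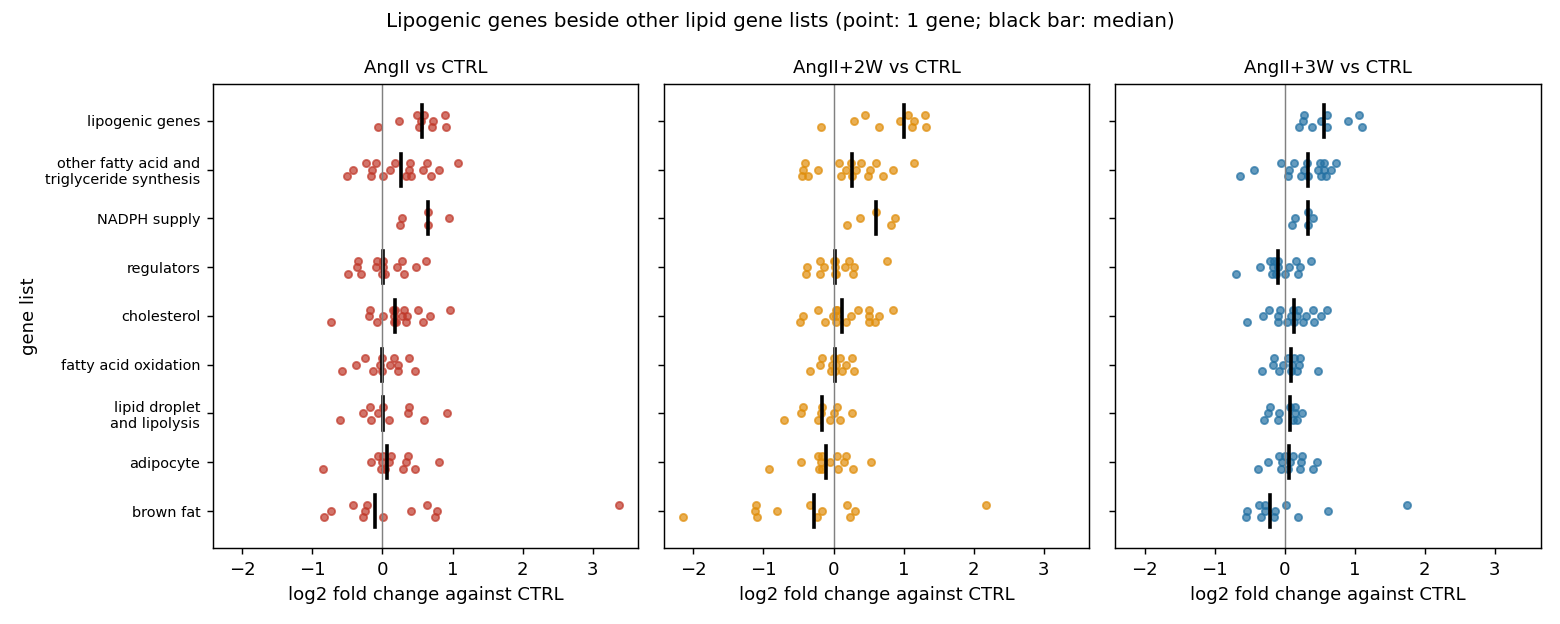
Log2 fold change against CTRL for every tested gene of the lipogenic group and of 8 lipid and fat cell lists, 1 panel for each infused group, with a black bar at the median of a list. The lipogenic median, here with Scd1 among the 10 genes, is 0.57, 1.00 and 0.56 from left to right, while the adipocyte median is 0.06, -0.11 and 0.06.

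Markers of fat cells were present in every library. Of 14 adipocyte markers none was at 0 in any library and none passed edgeR's test in any comparison with CTRL (1, 2 and 0 with an unadjusted p under 0.05, and 1, 0 and 0 called by DESeq2). Adipoq, which encodes adiponectin, was at 543 and 722 CPM for CTRL, 653 and 589 for AngII, 559.97 and 569.6 for AngII+2W, and 616 and 617 for AngII+3W. Fabp4 and Lpl, the most abundant, had log2 fold changes of 0.34 and 0.36 for AngII and -0.21 and -0.17 for AngII+2W. Retn, the DESeq2 call, had 0.80 for AngII (edgeR FDR 0.0556), and Lep had -0.84 (FDR 0.345). Of the 14 estimates 9, 6 and 9 were above 0 for AngII, AngII+2W and AngII+3W. The summed level of the 14 was 11488 to 14177 CPM for CTRL, 14062 to 16268 for AngII, 11649 to 12033 for AngII+2W and 12784 to 14702 for AngII+3W. The part of fat cell content in the lipogenic levels was not tested.

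Of 12 brown fat markers 2 passed in AngII and none in edgeR for AngII+2W or AngII+3W, where DESeq2 called 4 and 1 and an unadjusted p under 0.05 was found for 5 and 2. The medians of the list were -0.11, -0.28 and -0.21. Elovl3, an elongase of brown fat, rose in AngII from 3.22 and 3.95 CPM to 48.0 and 26.5 (log2 fold change 3.37, edgeR FDR 0.00759), and Prdm16, a brown fat regulator, fell from 134 and 128 to 69.0 and 77.3 (log2 fold change -0.84, FDR 0.0451). In AngII 5.1% of all genes were called. Leaving out 1 library in turn, the log2 fold change in AngII was 2.89 to 3.74 for Elovl3 and -0.92 to -0.76 for Prdm16. Both calls depended on which libraries were kept. Ucp1, the uncoupling protein, was at 761 and 1117 CPM for CTRL, 1879 and 1333 for AngII, 409 and 455 for AngII+2W, and 1217 and 679.6 for AngII+3W. The AngII+2W libraries were the lowest in Ucp1 (log2 fold change -1.12, edgeR FDR 0.303), while Elovl3 was above CTRL there (log2 fold change 2.18, FDR 0.174), and 4 of the 12 estimates were above 0.

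Markers of some other cell types shifted with the groups as well. Summed smooth muscle markers were at 7413 to 9472 CPM for CTRL, 1720 to 2167 for AngII, 3537 to 3928 for AngII+2W and 1696 to 3256 for AngII+3W, and 5 of the 6 fell in AngII and 4 in AngII+3W. Macrophage markers rose for 3 of 6 and fibroblast markers for 2 of 6 in AngII by edgeR, and none of either passed in AngII+2W or AngII+3W. DESeq2 called 5, 0 and 0 macrophage markers and 3, 2 and 0 fibroblast markers. An unadjusted p under 0.05 in edgeR was found for 6, 2 and 0 and for 4, 2 and 0. Summed macrophage markers were at 247 to 347 CPM in CTRL, 655 to 1036 in AngII, 428 to 430 in AngII+2W and 217 to 357 in AngII+3W. Summed fibroblast markers were at 1292 to 2140 CPM in CTRL, 7997 to 12941 in AngII, 2779 to 4172 in AngII+2W and 1137 to 3022 in AngII+3W. Of 8 Schwann cell markers edgeR called 1, lower in AngII, and none in AngII+2W or AngII+3W, and DESeq2 called 2, 0 and 0. Their medians were -0.82, -0.27 and 0.57. None of 5 endothelial markers was called against CTRL by edgeR or DESeq2, with medians of 0.09, 0.13 and 0.07. The part of these shifts in the lipogenic levels was not tested.

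**Figure D5:**
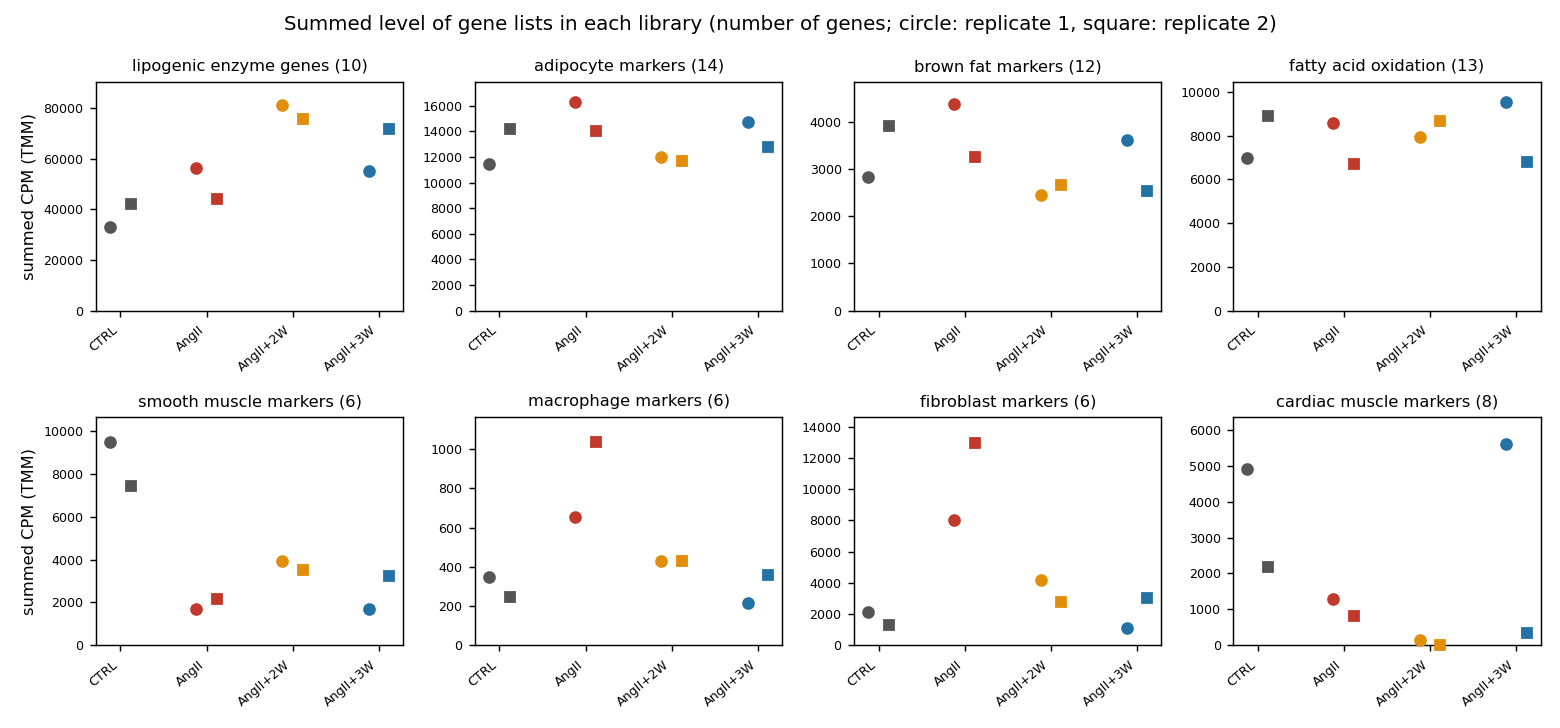
Summed CPM of gene lists in every library, on linear axes from 0, with circles for replicate 1 and squares for replicate 2. The 10 lipogenic genes, of which Scd1 holds a large share, are at 75582 to 81035 CPM in AngII+2W, adipocyte markers stay between 11488 and 16268 CPM, and smooth muscle markers are highest in CTRL.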

How the data were processed

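RNA of pieces of aorta (ribosomal RNA depleted, sequenced as pairs of reads) was analysed from 8 libraries in 4 groups, taken from the labels. The deposited table holds estimated counts for each gene, which the authors made with Salmon in the ARMOR workflow on a GRCm38 transcriptome and summarized with tximeta. Their values are whole numbers, and the Salmon version is not given in the sources used here. Counts in the table were filtered with filterByExpr (minimum count 10), scaled by TMM and fitted in 1 model of 4 groups with edgeR 4.0.16 in R 4.3.3. The quasi-likelihood F test gave p-values for 6 comparisons, adjusted by Benjamini-Hochberg over 17182 genes (FDR, threshold 0.05). CPM values use TMM-scaled totals, correlations use log2 CPM with a prior count of 2, and standard errors are the log2 fold change over the root of F. The test was checked on simulated data. Alternatives were DESeq2 1.42.0, other scalings and filters, a replicate block, a fit of only the groups compared and leaving out each library.

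The genes and lists were chosen with earlier results of these data known. All 10 genes are named, Scd1 without a test. From each other lipid list the genes past the threshold against CTRL are named, otherwise the 2 most abundant, and the 5 genes most like Scd1 and most like the mean of the 10. Adipoq, Fabp4, Lpl, Retn, Lep, Ucp1, Plin2 and Plin4 were added after their values were seen. Nnt (2 rows) was left out, and Pvalb did not pass the filter. Positions and transcript lengths are from GENCODE M21, which holds 35437 of the 35896 identifiers (98.72%). Near copies were found with BLAST 2.17.0, and upstream sequences are from RefSeq, with entries for 7 of the 10 genes.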

Additional observations from a re-analysis of the deposited data

How the results depend on the processing

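The call of Me1 in AngII against CTRL depended on the processing. With library totals alone 0 lipogenic genes were called there, and 3.62% of all genes were, beside 5.1% in the main fit. With every gene of at least 1 count 2 were called (Elovl6 and Me1), beside 4.63% of all genes. DESeq2 called 2 there, beside 9.24% of all genes. In AngII+2W DESeq2 called 5 (Fasn, Acaca, Acly, Elovl6 and Me1), beside 2.17% of all genes. In AngII+3W 1 gene (Me1) was called with every gene of at least 1 count, beside 0.819% of all genes. DESeq2 called 2 in AngII+3W (Elovl6 and Me1), beside 3.4%. Leaving out each library in turn left 1 library in a group, and the fits differed in how many of all genes they called. A call kept or lost in them is not read as a trait of a gene, so estimates alone are given. The log2 fold change of Dgat2 then ranged from -0.49 to 0.55 in AngII, -0.61 to 0.44 in AngII+2W and -0.16 to 0.88 in AngII+3W. In AngII+3W that of Scd2 ranged from -0.54 to 0.93, of Srebf1 from -0.077 to 0.54, of Thrsp from -7.17e-05 to 0.55 and of Scd1 from 0.63 to 1.09. Apart from the changed sample sizes, the cause was not tested. With a replicate block the count of called lipogenic genes was 1 in AngII, beside 5.06% of all genes, with an edgeR FDR of 0.0433 for Me1. It was 0 in the other 5 comparisons, as without the block, where 0 to 1.29% of all genes were called. Replicate differences correlated at -0.0034 to 0.43 over the 6 pairs of groups (4 pairs at 0.14 or more, 2 near 0), so not every pair exceeded 0.1, the mice differ between groups, and the numbers were not taken to pair the libraries. A group of 2 libraries limits every value above, and counting depth does not, since the lowest count of any of the 10 genes in a library was 3396.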
